A study of Homo sapiens with 15 samples.

Results

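NTERA2, a human embryonal carcinoma line that keeps many features of pluripotent stem cells, was depleted of 4 transcripts by siRNA, and the levels of 8 genes were followed in the 15 RNA sequencing libraries. These genes are ATP12A, TMPRSS13, VTCN1, RBBP8NL, SPNS2, SLC25A18, FOXI3 and PLA2G2A. They are 8 of the 28207 gene symbols in the count table, and all 8 passed the filter on low counts that left 18760 genes. They were chosen by their counts, picked because these were lower in the siIGF2BP1, siSRF, siFOXM1 and mostly the siIQGAP3 libraries than in every siControl library. Their differences from siControl are therefore given as a description, with no test, and they support nothing further.

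The 5 groups of 3 libraries each were siControl, siIGF2BP1, siSRF, siFOXM1 and siIQGAP3. Cells of every group, siControl included, were given siRNA 2 times over 7 days in medium with 10% serum. IGF2BP1 is an RNA-binding protein of fetal tissue and tumours, SRF and FOXM1 are transcription factors, and IQGAP3 is a scaffold protein that binds small GTPases. The series' title sets IGF2BP1 above IQGAP3 in the maintenance of stem cell potential in cancer. Whether the 3 libraries of a group stem from separate cultures is not stated, and the p-values below cover no more than the possibly technical variation among them. The columns carry no replicate number, and libraries are numbered here by their order in the table, only as names.

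Most of these genes, but not all, encode surface or transport proteins. A proton pump (ATP12A), a mitochondrial carrier (SLC25A18) and a lipid exporter (SPNS2) move substrates across membranes. A membrane-bound protease (TMPRSS13) and an immune checkpoint ligand (VTCN1, also called B7-H4) sit at the cell surface, and PLA2G2A is a secreted enzyme. FOXI3 is a nuclear transcription factor, and RBBP8NL is a little studied protein that resembles the amino-terminal part of the DNA repair protein RBBP8 (CtIP). Genes for surface proteases, apical pumps and immune ligands are best known from differentiated epithelia, and an embryonal carcinoma line expresses a mixture of stem cell and epithelial genes.

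The libraries held 35275570 to 44996064 counts in genes, so that 1 count was worth 0.0213 to 0.0289 CPM (a count scaled to the depth of its library, here by the TMM method). The targeted transcript was at 20.8% of the siControl mean for IGF2BP1, 7.51% for SRF and 20.6% for FOXM1 in its own knockdown, and at 48.0% for IQGAP3. The depletions were not separate. SRF was at 7.97% in siIGF2BP1 as well, FOXM1 at 30.05% in siIGF2BP1 and 29.3% in siSRF, and IQGAP3 at 17.9%, 19.7% and 6.70% in siIGF2BP1, siSRF and siFOXM1, below its level in its own knockdown. In siIQGAP3 the other 3 targets were at 90.5% to 109%. All 10 markers of embryonal carcinoma cells had a mean of at least 1 CPM in every group, which does not mean that they kept their siControl level (given below). Library 3 stood apart from the others in 4 groups: 41.3% of genes were at least 2-fold from the mean of libraries 1 and 2 in siControl, 26.0% in siSRF, 16.7% in siIGF2BP1 and 15.1% in siFOXM1, against 1.33% in siIQGAP3. Libraries 1 and 2 differed that much at only 2.12% to 4.17% of genes. Where leaving out 1 library moved a fold change given here for a member or a relative by over 1.5 times, the value without it is given as well.

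All 8 genes had their 9 siIGF2BP1, siSRF and siFOXM1 libraries below every siControl library, as the rule required, and 3.58% of all genes tested had the same arrangement. For 7 of the 8, all 12 knockdown libraries lay below, against 1.78% of all genes. FOXI3 was the exception. The lowest control was 3.05 times the highest of the 9 libraries for SPNS2, the closest of the 8 to the limit of the rule. Over all 12 libraries, PLA2G2A was the closest inside that limit (1.57 times), and FOXI3 lay outside it (0.518 times). For a single knockdown, the share of all genes with 3 libraries below all siControl libraries was 9.57% in siIGF2BP1, 7.2% in siSRF, 8.15% in siFOXM1 and 23.1% in siIQGAP3. Nothing is read from the members' counts against these shares, since the rule used the same contrasts. In whole cell pellets, fewer cells that express a gene and less RNA per cell cannot be told apart.

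**Figure D1:**
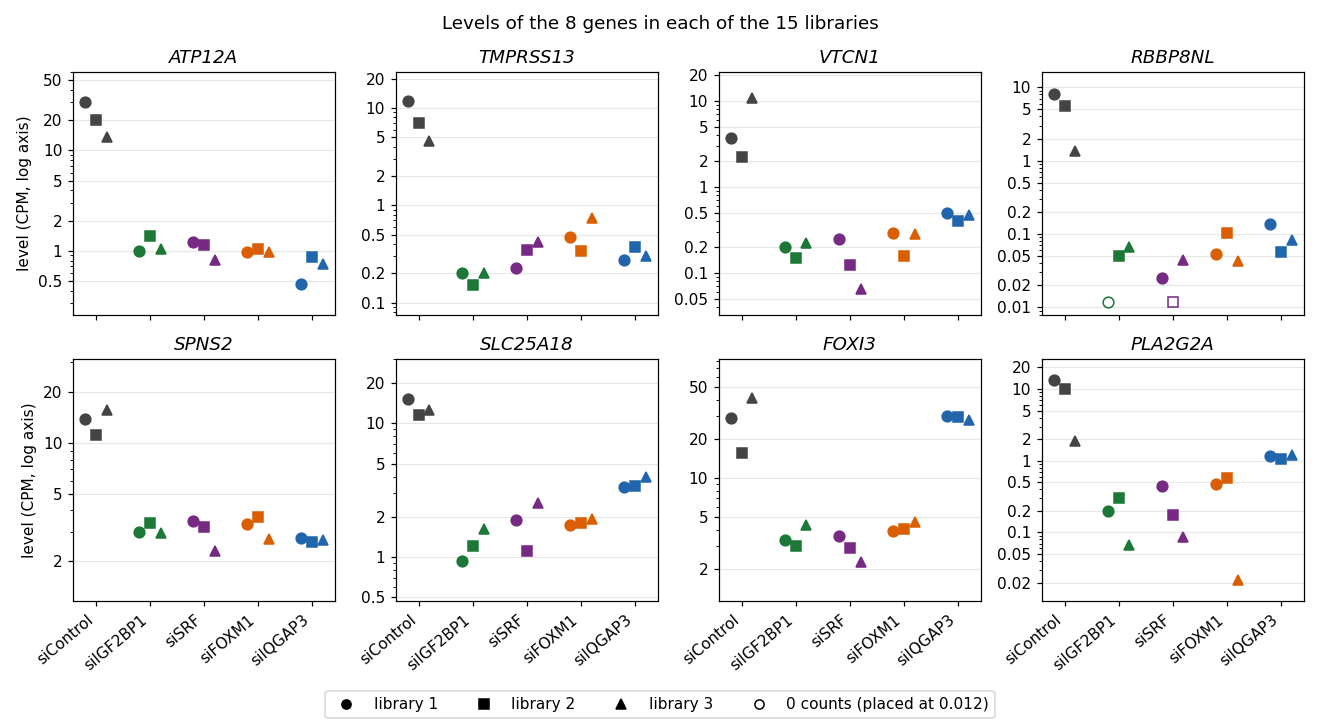
Level of each of the 8 genes (CPM, log axis) in each of the 15 libraries, with 1 panel per gene and the marker shape giving the library; open markers stand for 0 counts. The siControl points lie above the other groups in every panel except that of FOXI3, where the siIQGAP3 libraries (28.0 to 30.2 CPM) lie within the siControl range.

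ATP12A encodes the catalytic subunit of the non-gastric proton-potassium pump, which acidifies the apical side of some epithelia. Its 3 siControl libraries held 30.1, 20.2 and 13.4 CPM. In siIGF2BP1 it was at 1.01, 1.41 and 1.05 CPM, in siSRF at 1.23, 1.14 and 0.809 CPM, and in siFOXM1 at 0.980, 1.05 and 0.979 CPM. The siIQGAP3 libraries, at 0.466, 0.866 and 0.743 CPM, had the lowest mean and did not overlap with siFOXM1 or siIGF2BP1, whereas library 3 of siSRF lay below library 2 of siIQGAP3. The control level varied 2.24-fold between libraries, but the lowest control was still 9.55 times the highest of the 12 knockdown libraries. Relative to the siControl mean of 21.2 ± 8.37 CPM (SD, n = 3), the 4 knockdown means were 5.44%, 4.99%, 4.71% and 3.26% in the order siIGF2BP1, siSRF, siFOXM1 and siIQGAP3. The fitted log2 fold changes were -4.20 ± 0.36 (SE), -4.32 ± 0.36, -4.40 ± 0.36 and -4.94 ± 0.37. The siIGF2BP1, siSRF and siFOXM1 libraries overlapped with each other.

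SLC25A18 is a carrier that takes glutamate into mitochondria together with a proton. Its siControl libraries were close to each other, at 15.2, 11.5 and 12.5 CPM. The level was 0.931, 1.21 and 1.61 CPM in siIGF2BP1, 1.91, 1.12 and 2.56 CPM in siSRF, and 1.75, 1.80 and 1.91 CPM in siFOXM1. In siIQGAP3 it was 3.31, 3.38 and 3.94 CPM, above all 9 libraries of the other knockdowns and below all 3 controls. The means were 9.55%, 14.2%, 13.9% and 27.1% of the siControl mean of 13.1 ± 1.89 CPM (SD, n = 3). This gave log2 fold changes of -3.38 ± 0.32 (SE), -2.81 ± 0.31, -2.84 ± 0.31 and -1.88 ± 0.30. The gene therefore kept more of its control level in siIQGAP3 than in any other knockdown.

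SPNS2 exports sphingosine 1-phosphate, a lipid signal read by the S1PR receptors, from cells. The siControl libraries held 13.9, 11.2 and 15.8 CPM. It stood at 2.99, 3.37 and 2.95 CPM in siIGF2BP1, 3.48, 3.20 and 2.32 CPM in siSRF, 3.34, 3.66 and 2.72 CPM in siFOXM1, and 2.74, 2.60 and 2.67 CPM in siIQGAP3. The 4 knockdown groups overlapped with each other in sequence and lay between 19.6% and 23.8% of the siControl mean of 13.6 ± 2.32 CPM (SD, n = 3). The log2 fold changes, -2.13 ± 0.23 (SE), -2.18 ± 0.23, -2.07 ± 0.23 and -2.35 ± 0.23, spanned the narrowest range of the 8 genes. SPNS2 overlaps MYBBP1A on the opposite strand, and since the strand setting of the counting is not given in the sources used here, reads in the shared stretch cannot be told apart. MYBBP1A, a nucleolar protein gene, was at 101 ± 18.8 CPM in siControl (SD, n = 3), and its log2 fold changes of 0.21, 0.28, 0.02 and 0.31 did not pass the test in any knockdown (edgeR adjusted p = 0.684, 0.629, 0.990 and 0.299).

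TMPRSS13 is a type II transmembrane serine protease, anchored in the plasma membrane with its catalytic domain outside. The siControl libraries held 11.7, 6.98 and 4.54 CPM. In siIGF2BP1 the level was 0.201, 0.151 and 0.201 CPM, below every library of the other groups. It was 0.226, 0.347 and 0.415 CPM in siSRF, 0.274, 0.375 and 0.303 CPM in siIQGAP3, and 0.477, 0.340 and 0.740 CPM in siFOXM1. The siSRF libraries overlapped with both siIQGAP3 and siFOXM1. Set against the siControl mean of 7.75 ± 3.66 CPM (SD, n = 3), the means were 2.38% in siIGF2BP1, 4.25% in siSRF, 6.69% in siFOXM1 and 4.09% in siIQGAP3. The log2 fold changes were -5.37 ± 0.46 (SE), -4.54 ± 0.44, -3.89 ± 0.43 and -4.60 ± 0.45. Without library 3 of all groups, the siFOXM1 value was -4.53.

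VTCN1 encodes a B7 family ligand that restrains T cells. Its control level was uneven, at 3.72, 2.20 and 10.8 CPM, a 4.93-fold range. The level was 0.201, 0.151 and 0.224 CPM in siIGF2BP1, 0.251, 0.124 and 0.0656 CPM in siSRF, and 0.291, 0.157 and 0.283 CPM in siFOXM1. In siIQGAP3 it was 0.493, 0.404 and 0.468 CPM, above the 9 libraries of the other knockdowns, and 4.46-fold or more below the lowest control. Fitted against siControl, the changes on the log2 scale were -4.84 ± 0.63 (SE), -5.24 ± 0.65, -4.50 ± 0.62 and -3.61 ± 0.59. Without library 3 of siControl, which held the highest level, they were -3.92, -4.32, -3.58 and -2.69. Library 1 of siSRF moved the siSRF value as well, to -5.85 when it was left out.

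PLA2G2A is a secreted phospholipase A2 that cleaves membrane phospholipids and acts on bacteria. It was at 13.2, 9.96 and 1.90 CPM in siControl, so that control library 3 stood at 0.164 of the mean of the other two. The level was 0.201, 0.302 and 0.0671 CPM in siIGF2BP1, 0.451, 0.174 and 0.0874 CPM in siSRF, and 0.477, 0.575 and 0.0218 CPM in siFOXM1, where library 3 held 1 count. Library 3 was the lowest of its group in siControl and in these 3 knockdowns. The siIQGAP3 libraries, at 1.18, 1.07 and 1.21 CPM, lay above the other 9 knockdown libraries and the lowest control was 1.57 times the highest of them. On the log2 scale it differed from siControl by -5.45, -5.13, -4.55 and -2.85, with SE between 0.89 and 1.03. With library 1 of siSRF left out the siSRF value was -5.98, and with library 3 of siFOXM1 left out the siFOXM1 value was -3.97.

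VTCN1 and PLA2G2A share a stretch of letters around their starts that is printed here because few windows hold it. RefSeq (GRCh38.p14) gives a window of 250 bases before to 50 after the start for 5 of the 8 genes (VTCN1, PLA2G2A, FOXI3, ATP12A and SLC25A18), and the letters TATTTAA, searched on both strands, occur in 4.52% of the 35116 windows of that table. This motif was added to the search after the sequences had been read. The match lies at position -29 in VTCN1 and at position +11 in PLA2G2A. Both genes lie on the minus strand of chromosome 1, at chr1:117210878-117211177 and, for the first of 3 windows of PLA2G2A, at chr1:19979610-19979909. Capitals mark TATTTAA and the CCAAT box (letters CCAAT, in 34.6% of windows).
VTCN1: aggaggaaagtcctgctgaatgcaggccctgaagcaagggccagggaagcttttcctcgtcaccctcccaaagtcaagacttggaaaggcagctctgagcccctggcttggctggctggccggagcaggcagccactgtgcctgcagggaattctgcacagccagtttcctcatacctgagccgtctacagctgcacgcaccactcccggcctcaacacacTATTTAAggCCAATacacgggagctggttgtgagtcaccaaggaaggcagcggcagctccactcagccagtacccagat
PLA2G2A: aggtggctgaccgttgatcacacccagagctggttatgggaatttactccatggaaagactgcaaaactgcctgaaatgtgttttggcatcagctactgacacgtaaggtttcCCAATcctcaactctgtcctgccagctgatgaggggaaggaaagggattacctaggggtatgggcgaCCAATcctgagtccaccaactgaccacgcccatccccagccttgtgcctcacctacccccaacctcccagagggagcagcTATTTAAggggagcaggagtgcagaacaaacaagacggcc

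RBBP8NL had the lowest counts of the 8 genes in the knockdowns. The siControl libraries held 318, 205 and 64 counts, or 8.10, 5.57 and 1.37 CPM. The 9 siIGF2BP1, siSRF and siFOXM1 libraries held 0 to 4 counts each, with 0 in library 1 of siIGF2BP1 and library 2 of siSRF, and the siIQGAP3 libraries held 5, 2 and 3. Summed over the group and set against siControl at equal depth, this was 0.843% in siIGF2BP1 (exact 95% interval 0.273% to 1.98%), 0.499% in siSRF (0.103% to 1.47%, from 3 counts), 1.37% in siFOXM1 (0.590% to 2.72%) and 1.95% in siIQGAP3 (0.930% to 3.61%). These intervals cover counting error only. They overlap throughout, but each sets 1 knockdown against siControl, so no order among the knockdowns is read from them. The fitted log2 fold changes were -6.87 ± 0.90 (SE), -7.55 ± 0.94, -6.17 ± 0.85 and -5.71 ± 0.83, and at so few counts they depend on the prior count of the fit. Leaving out library 3 of siIGF2BP1 moved the siIGF2BP1 value to -7.47, and leaving out library 3 of siSRF moved the siSRF value to -8.32.

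FOXI3, a forkhead transcription factor, is known for its part in the ectoderm that forms the inner ear, the pharyngeal arches, hair and teeth. Its siControl libraries held 28.9, 15.6 and 41.6 CPM. The level was 3.32, 2.99 and 4.32 CPM in siIGF2BP1, 3.58, 2.90 and 2.23 CPM in siSRF, and 3.92, 4.08 and 4.61 CPM in siFOXM1. These 9 libraries did not overlap with siControl, and the group means were 12.3%, 10.1% and 14.6% of the siControl mean of 28.7 ± 12.99 CPM (SD, n = 3). In siIQGAP3, by contrast, FOXI3 was at 30.2, 29.7 and 28.0 CPM, which is 102% of the siControl mean and inside the control range. The log2 fold changes were -3.02 ± 0.32 (SE), -3.30 ± 0.32, -2.77 ± 0.32 and 0.03 ± 0.30. FOXI3 therefore goes against the description of a gene lowered in every knockdown, and 0 of its 3 siIQGAP3 libraries lay below the lowest control.

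The promoter windows of FOXI3 and ATP12A are printed because these genes behaved most differently in siIQGAP3, where ATP12A was at its lowest and FOXI3 at its control level. The FOXI3 window (GRCh38.p14, chr2:88452644-88452943, minus strand) is 78.0% G and C, against a median of 58.67% over all windows. It holds 6 matches to the GC box (letters GGGCGG, in 44.95% of windows, some overlapping here) and 1 to the TEAD motif (letters GGAATG, in 14.0%). The ATP12A window (GRCh38.p14, chr13:24680158-24680457, plus strand) is 59.0% G and C and holds 2 GC boxes, a CCAAT box and, far from the start, the TATA box letters TATAAA (in 11.5% of windows). Capitals mark these motifs on either strand. Within the windows of VTCN1, PLA2G2A, FOXI3, ATP12A and SLC25A18 there was no match to the octamer ATGCAAAT (1.77% of windows), the forkhead core TGTTTA (12.3%), the cell cycle element TTTGAA (15.2%) or the CArG box to which SRF binds (1.29%), which says only that these letters are not in these windows.
FOXI3: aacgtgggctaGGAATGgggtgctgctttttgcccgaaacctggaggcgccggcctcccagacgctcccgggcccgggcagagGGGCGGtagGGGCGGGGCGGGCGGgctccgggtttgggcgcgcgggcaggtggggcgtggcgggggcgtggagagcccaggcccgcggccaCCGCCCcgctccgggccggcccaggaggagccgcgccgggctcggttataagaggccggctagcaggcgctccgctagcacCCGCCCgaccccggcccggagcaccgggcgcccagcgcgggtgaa
ATP12A: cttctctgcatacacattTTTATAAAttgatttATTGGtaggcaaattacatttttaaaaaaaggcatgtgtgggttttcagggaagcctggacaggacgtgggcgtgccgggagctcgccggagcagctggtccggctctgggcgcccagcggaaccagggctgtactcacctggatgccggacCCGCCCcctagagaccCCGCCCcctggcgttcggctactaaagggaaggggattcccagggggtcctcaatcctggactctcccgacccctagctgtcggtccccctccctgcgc

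**Figure D2:**
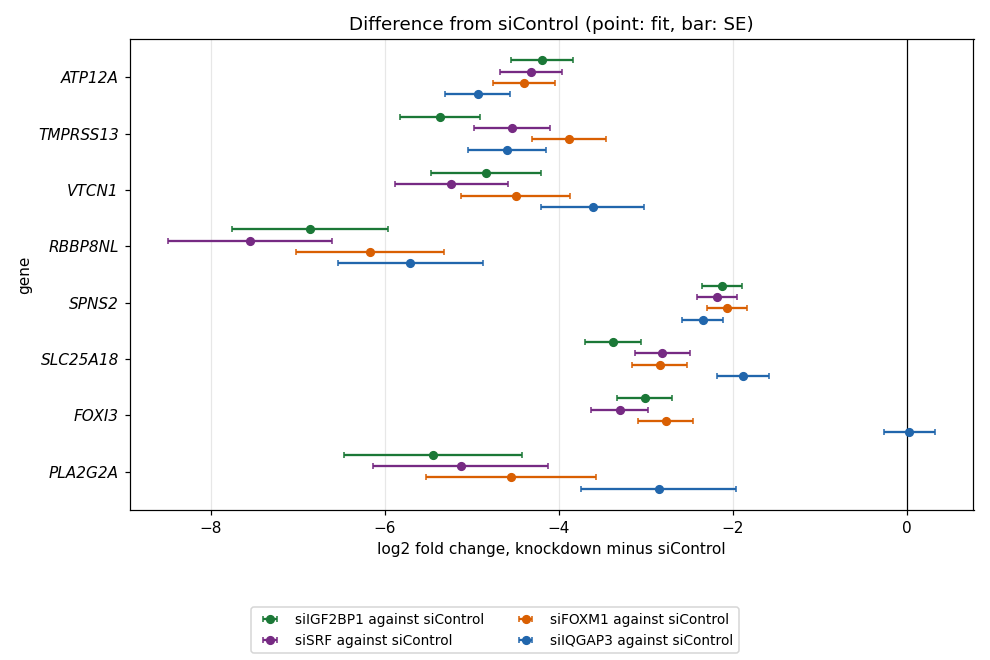
Fitted log2 fold change of each gene against siControl, with a point and its SE for each of the 4 knockdowns. RBBP8NL lies farthest to the left (-7.55 in siSRF), SPNS2 has the tightest cluster (-2.35 to -2.07), and FOXI3 is at 0.03 in siIQGAP3.

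The 8 genes were then compared between knockdowns, first among siIGF2BP1, siSRF and siFOXM1. The rule did not set these 3 groups against each other, but it required all 9 of their libraries to lie below siControl. Choosing genes that are low in all 3 groups bears on these comparisons, so a lack of calls is not read as likeness of the knockdowns. As given above, siIGF2BP1 and siSRF share a low SRF level, and all 3 knockdowns share low FOXM1 and IQGAP3 levels. None of the 24 comparisons passed the test (edgeR, Benjamini-Hochberg adjusted over all 18760 genes). Counts were low for several members in these 9 libraries, at 0 to 4 for RBBP8NL, 3 to 13 for VTCN1, 1 to 22 for PLA2G2A and 6 to 34 for TMPRSS13. RBBP8NL would not pass the count filter in these 9 libraries alone, so that its 3 comparisons say little, and 21 of the 24 are of the other 7 genes. Over all genes, 0.00533% were called between siIGF2BP1 and siSRF, 0.0107% between siIGF2BP1 and siFOXM1 and 0.00533% between siSRF and siFOXM1, so that calls were rare for any gene. In the pairs with siFOXM1 that rarity rests on the third libraries and on the tool. Without library 3 of siFOXM1 these pairs had 206 and 175 genes called in place of 2 and 1, and DESeq2 called 64 and 45. Without library 3 of every group they had 9956 and 10534. Between siIGF2BP1 and siSRF the count stayed at 1 whichever single library was left out and was 2 with DESeq2, but 259 without library 3 of every group. At an unadjusted p under 0.05 there was 1 member comparison, and DESeq2 called 0 of the 24 and also had 1 at an unadjusted p under 0.05. That comparison was TMPRSS13, which was lower in siIGF2BP1 than in siFOXM1 by a log2 difference of -1.48 ± 0.42 (SE, 95% interval -2.40 to -0.56, edgeR adjusted p = 0.778). All 3 siIGF2BP1 libraries of TMPRSS13 lay below all 3 siFOXM1 libraries.

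The intervals show how far the other members could differ. ATP12A differed by 0.13 log2 units between siIGF2BP1 and siSRF (95% interval -0.57 to 0.83), by 0.21 between siIGF2BP1 and siFOXM1 (-0.50 to 0.91) and by 0.08 between siSRF and siFOXM1 (-0.62 to 0.78). For SPNS2 the widest of the 3 intervals ran from -0.59 to 0.37. A 2-fold difference was thus outside the interval for these 2 genes in every pair, and for FOXI3 in both pairs with siIGF2BP1 and SLC25A18 between siSRF and siFOXM1. At the other end, PLA2G2A had an interval of -2.95 to 1.16 between siIGF2BP1 and siFOXM1, and RBBP8NL one of -3.65 to 0.90 between siSRF and siFOXM1, where its difference of -1.38 was -2.16 without library 3 of siSRF. The PLA2G2A interval held a 2-fold difference in either direction. The RBBP8NL interval held a 2-fold lower level in siSRF but not a 2-fold higher one. Large differences could thus go undetected for these genes at this spread. When library 3 of all groups was left out, SLC25A18 passed the test as lower in siIGF2BP1 than in siFOXM1 (log2 difference -0.76, edgeR adjusted p = 0.0245), while 9956 genes in all were then called in that pair.

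The siIQGAP3 libraries set the members apart from each other. Since the rule asked less of siIQGAP3, these differences are a description. VTCN1, SLC25A18, FOXI3 and PLA2G2A had all 3 siIQGAP3 libraries above all 9 of the other knockdowns, which is 4 of 8 genes where 26.4% of all genes did so, and 0 of 8 had them below, where 29.6% of all genes did. FOXI3 was higher in siIQGAP3 by 3.05, 3.33 and 2.80 log2 units than in siIGF2BP1, siSRF and siFOXM1. PLA2G2A was higher by 2.59, 2.28 and 1.70, but its siSRF value was 3.12 without library 1 of siSRF and its siFOXM1 value 1.11 without library 3 of siFOXM1. SLC25A18 was higher by 1.50, 0.93 and 0.96. VTCN1 was higher by 1.23, 1.63 and 0.89, with the siSRF value at 2.24 without library 1 of siSRF. For RBBP8NL, at 2 to 5 counts in siIQGAP3, the differences were 1.16, 1.84 and 0.47, and they became 1.76 without library 3 of siIGF2BP1 and 2.62 without library 3 of siSRF. ATP12A went the other way, with -0.74, -0.61 and -0.53, and SPNS2 stayed near 0 with -0.22, -0.17 and -0.28. TMPRSS13 had mixed signs, at 0.77, -0.06 and -0.71.

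**Figure D3:**
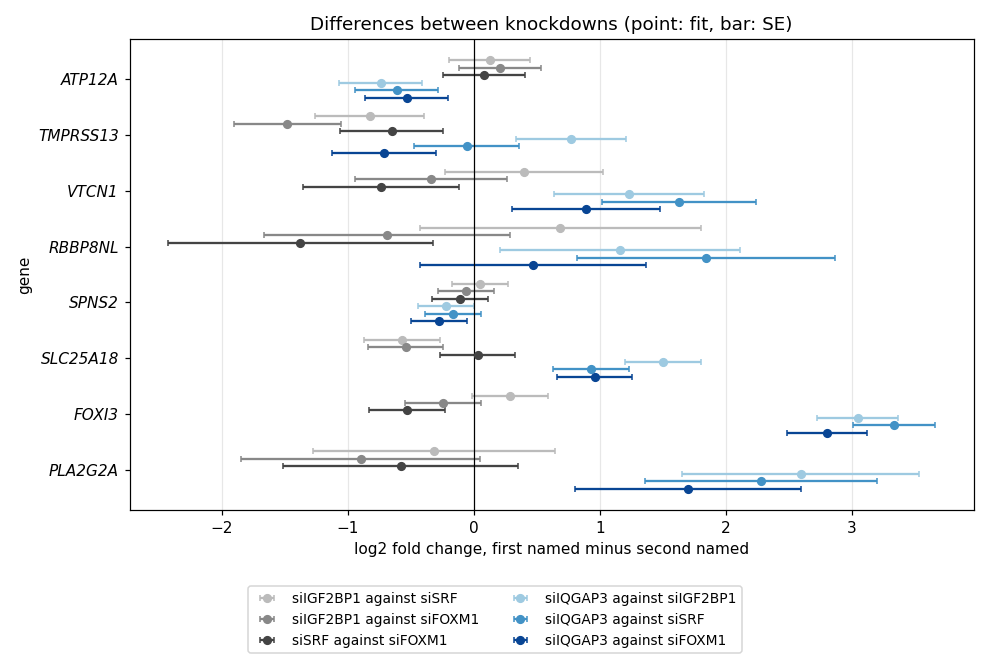
Fitted log2 difference between pairs of knockdowns for each gene, with a point and its SE per pair; grey points are the 3 tested pairs and blue points set siIQGAP3 against the others. The grey points lie between -1.48 and 0.69, and the blue points of FOXI3 lie between 2.80 and 3.33.

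Library 3 of siControl moved the members in different directions. Relative to the mean of libraries 1 and 2 on the log2 scale, it was higher by 1.90 for VTCN1, 0.97 for FOXI3 and 0.34 for SPNS2, near 0 for SLC25A18 (-0.08), and lower for ATP12A (-0.87), TMPRSS13 (-0.99), RBBP8NL (-2.26) and PLA2G2A (-2.56). PLA2G2A was also lower in library 3 of siFOXM1 (-3.00), siIGF2BP1 (-1.35) and siSRF (-1.29). With library 3 of every group left out, the members' fold changes kept their direction in siIGF2BP1, siSRF and siFOXM1. The values that moved most were those of VTCN1, from -5.24 to -4.01 in siSRF, and RBBP8NL, from -7.55 to -8.81.

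As a description with no test, the 28 pairs of members were correlated over libraries. Over all 15 libraries Pearson's r of log2 CPM ran from 0.44 to 0.97 with a median of 0.84, a pattern that the choice of members by their control level sets in part. Over the 12 knockdown libraries the median was 0.07 and the range -0.72 to 0.85. These libraries share depth and group, and the lower members hold few counts in them. ATP12A and SLC25A18 had the lowest r in the knockdowns (-0.72), and VTCN1 and FOXI3 the highest (0.85).

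**Figure D4:**
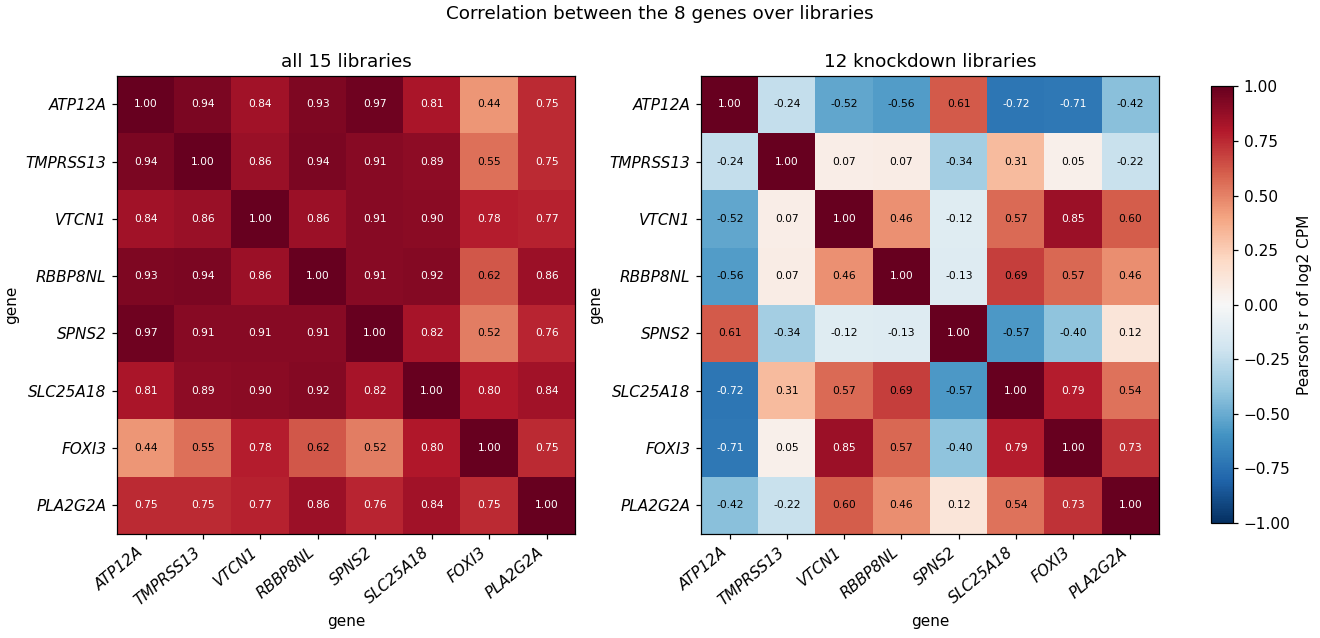
Pearson's r of log2 CPM for each pair of the 8 genes, over all 15 libraries on the left and over the 12 knockdown libraries on the right, with colour and number giving r. The left panel is positive throughout (0.44 to 0.97), and the right panel holds both signs (-0.72 to 0.85).

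The genes with the profile most like each member, by Pearson's r of log2 CPM over the 15 libraries, are given as a description. For ATP12A these were KLF4 (0.98), PROM2 (0.96) and MYC (0.95), and for SPNS2 SP6 (0.96), POU5F1 (0.96) and KLF4 (0.95). KLF4, MYC and POU5F1 are pluripotency factors, and the deposited count and normalised tables do not give matching values for these 3 genes. For VTCN1 the nearest were UPK1B (0.97), LEFTY1 (0.96) and SP6 (0.96), and for SLC25A18 GRHL3 (0.97), ATP6V0A4 (0.95) and ABHD12B (0.95). RBBP8NL was nearest to DNMT3L (0.97), ALPG (0.97) and BCAR3-AS1 (0.96), and TMPRSS13 to AOC1 (0.93), TNFSF8 (0.93) and BCAR3-AS1 (0.92). FOXI3 was nearest to NLRP10 (0.98), PRDM14 (0.98) and VSIG10 (0.97). PRDM14, a repressor that guards the pluripotent and germ cell state, was at 27.1 CPM in siControl, 1.38 CPM on average in siIGF2BP1, siSRF and siFOXM1, and 63.7 CPM in siIQGAP3. PLA2G2A was nearest to SLC7A7 (0.96), GPR78 (0.95) and TMC5 (0.95).

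Relatives and partners of the members, 99 genes in 8 lists drawn up by gene family and pathway, though with earlier results of these data known, were tested against siControl. Of these, 75 passed the count filter. In siIGF2BP1 4 were lower and 0 higher, where 1.33% of all genes were called lower and 0.288% higher (1.62% in either direction). In siSRF 5 were lower and 0 higher (all genes 1.2% and 0.368%, 1.57% in either direction), and in siFOXM1 3 were lower and 0 higher (all genes 0.832% and 0.288%, 1.12% in either direction). Their median log2 fold change was -0.19 in siIGF2BP1, -0.20 in siSRF and -0.18 in siFOXM1, against 0.01, 0.01 and -0.02 over all genes. The counts rest on single libraries: leaving out 1 library at a time gave 2 to 9, 2 to 13 and 1 to 13 called genes, with the lowest value without library 1 or 2 of siIGF2BP1, library 1 or 2 of siSRF and library 1 of siControl respectively. The highest value, 9, came without library 2 of siControl in siIGF2BP1, and 13 without library 3 of siControl in the other two. The lists of RBBP8NL, SLC25A18, FOXI3 and PLA2G2A had 0 called genes in all 3 knockdowns by edgeR, with 0 to 4 genes of a list at an unadjusted p under 0.05. Over all lists 17, 18 and 19 of the 75 relatives had an unadjusted p under 0.05, and DESeq2 called 12, 11 and 9. Without library 3 of every group 43, 52 and 47 relatives were called. The shares of all genes called against siControl under these alternatives are not given here, so nothing is read from these counts.

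The clearest relatives were 2 membrane proteases of the TMPRSS13 list. ST14 (matriptase), which is found on most epithelia, was at 4.64, 3.09 and 6.61 CPM in siControl. It fell to means of 0.686 ± 0.060, 0.733 ± 0.199 and 0.601 ± 0.155 CPM (SD, n = 3) in siIGF2BP1, siSRF and siFOXM1, with log2 fold changes of -2.80 ± 0.36 (SE, edgeR adjusted p = 0.00241), -2.70 ± 0.36 (0.00259) and -2.99 ± 0.37 (0.00199). In siIQGAP3 it was at 2.47, 3.20 and 2.01 CPM, with a log2 fold change of -0.90 that did not pass the test (adjusted p = 0.0577). When only the groups compared entered the fit, the calls of ST14 were lost (adjusted p = 0.140, 0.178 and 0.145).

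TMPRSS2, a protease of prostate, lung and gut epithelia, was at 5.15, 3.15 and 4.95 CPM in siControl and fell to 0.728 ± 0.114, 0.651 ± 0.167 and 0.702 ± 0.402 CPM (SD, n = 3). Its log2 fold changes were -2.59 ± 0.44 (SE, edgeR adjusted p = 0.0121), -2.76 ± 0.44 (0.00698) and -2.65 ± 0.44 (0.0125). The siIGF2BP1 call was lost without its library 1 or 2 (0.0787 and 0.0918), and the siFOXM1 call without library 1 of siControl (0.0501). In siIQGAP3 TMPRSS2 was at 7.75, 8.14 and 7.76 CPM, above all controls, with a log2 fold change of 0.84 that did not pass the test (adjusted p = 0.133). Thus 9 libraries held TMPRSS2 below every control while 3 held it above. Both TMPRSS2 and ST14 were called higher in siIQGAP3 than in siIGF2BP1, siSRF and siFOXM1, as were 22%, 17% and 13.9% of all genes (49.9%, 42.8% and 36.8% were called in either direction).

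SPNS3, the closest listed relative of SPNS2, was near the floor. It was at 0.637, 0.489 and 0.725 CPM in siControl and at means of 0.0410, 0.0478, 0.0640 and 0.102 CPM in siIGF2BP1, siSRF, siFOXM1 and siIQGAP3. Its log2 fold changes were -3.83 (edgeR adjusted p = 0.0143), -3.61 (0.0157), -3.19 (0.0327) and -2.56 (0.00786). The siIGF2BP1 value was -5.39 without library 1 of siIGF2BP1. It is the listed gene that was called in all 4 knockdowns. Its knockdown levels were too low for the count filter, which it passed only through siControl, and these calls are conditional on that. The call was lost without library 3 of siIGF2BP1 (0.0582), without library 1 or 2 of siSRF (0.0861 and 0.0858), and, for siFOXM1, without library 1 of siControl (0.0911) or any siFOXM1 library (0.169, 0.139 and 0.0554). The remaining calls were ATP1A4, a sodium pump subunit of sperm, in siIGF2BP1 (-3.60, adjusted p = 0.0365) and siSRF (-3.25, 0.0489), and ICOSLG, a B7 family ligand that activates T cells, in siSRF (-0.87, 0.0477). ATP1A4 lost its call without library 1 or 3 of siControl or any siIGF2BP1 library (adjusted p of 0.0524 to 0.169) and, in siSRF, without library 1 of siControl or library 1 or 2 of siSRF (0.0742 to 0.207). Without library 3 of siControl its values were -2.73 and -2.37, and without library 3 of siSRF the siSRF value was -4.02. ICOSLG lost its call without library 1 or 2 of siControl or library 1 or 2 of siSRF (0.0547 to 0.205).

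In siIQGAP3 23 of the 75 relatives were lower and 5 higher, where 21.7% of all genes were called lower, 10.8% higher and 32.5% in either direction. The count was 19 to 46 when 1 library at a time was left out, with 46 without library 3 of siControl. The median log2 fold change of the relatives was -0.36, against -0.06 over all genes. The largest group was that of FOXI3, the member that kept its level: of 11 tested ectodermal and placodal regulators, 7 were lower and 1 higher. TFAP2A, a transcription factor of surface ectoderm and neural crest, was at 181, 206 and 30.3 CPM in siControl and fell to 4.41, 5.34 and 5.59 CPM (log2 fold change -4.76 ± 0.54 (SE), edgeR adjusted p = 1.43e-04). DLX3 fell from a mean of 49.8 to 1.35 CPM (-5.20, 4.11e-04), EDA, the ectodysplasin ligand, from 21.2 to 6.54 CPM (-1.70, 9.63e-04), and EYA1, a transcriptional coactivator, from 16.8 to 5.17 CPM (-1.69, 0.00191). For these 4 genes all 3 siIQGAP3 libraries lay below all 3 siControl libraries, and the calls of TFAP2A, DLX3, EDA and EYA1 held in all 12 alternatives run.

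Other lists held called genes in siIQGAP3 too. PLA2G4A, the cytosolic phospholipase A2 that releases arachidonic acid, was at 20.0, 21.7 and 12.2 CPM in siControl and fell to 3.26, 4.21 and 3.47 CPM (log2 fold change -2.30 ± 0.24 (SE), edgeR adjusted p = 8.01e-05). PTGS2 (cyclooxygenase-2), which acts on that acid, fell by 1.93 on the log2 scale (0.00562), or by 1.29 without library 3 of every group. In the sphingosine 1-phosphate list, 4 of 15 were lower and 1 higher, shares close to the 21.7% and 10.8% of all genes. The receptor S1PR5 was at 21.3, 23.4 and 10.2 CPM in siControl and fell to 3.86, 3.72 and 3.96 CPM (-2.25 ± 0.30, 3.69e-04), and the phosphatase SGPP1 fell by 1.22 (0.00324). CTBP2, a transcriptional corepressor, rose from 84.6, 76.0 and 87.3 CPM to 140, 144 and 147 CPM (0.80 ± 0.10, 3.31e-04). Among the pump relatives FXYD1 fell from a mean of 21.4 to 0.279 CPM (-6.25, 9.83e-04) and FXYD7 fell by 2.22 (0.00471).

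Mitochondrial aspartate-glutamate carriers on the list of SLC25A18 moved apart in siIQGAP3. SLC25A12, an aspartate-glutamate carrier, fell by 0.79 on the log2 scale (edgeR adjusted p = 0.00303), whereas SLC25A13 (citrin), its counterpart in liver, rose by 1.75 (0.0107), or by 2.80 without library 3 of siControl. SLC25A13, with a siControl mean of 53.6 ± 48.2 CPM (SD, n = 3), lost its call when only the groups compared entered the fit, as did FXYD7. ICOSLG fell by 0.88 (0.00563) and NCR3LG1, a ligand of natural killer cells, by 2.97 (0.0122), a call that was lost without library 2 of siIQGAP3 (0.0507). NCR3LG1 was uneven in siControl, at a mean of 15.9 ± 12.2 CPM (SD, n = 3). Only 1 of its 3 siIQGAP3 libraries, with a mean of 2.01 CPM, lay below every control. Weaker calls were TMPRSS6 (-1.28, 0.0166), TMPRSS9 (-1.05, 0.0394), CD274 (-1.47, 0.0393) and S1PR2 (-0.97, 0.0202). TMPRSS9 lost its call without library 1 or 2 of siControl or any siIQGAP3 library (adjusted p of 0.0742 to 0.156). TMPRSS6 lost its call without library 1 or 2 of siIQGAP3 (0.0530 to 0.0732), CD274 without library 3 of siControl, where its value was -0.54, or any siIQGAP3 library (0.0826 to 0.191), and S1PR2 without library 1 or 2 of siControl or library 1 or 3 of siIQGAP3 (0.0670 to 0.109).

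**Figure D5:**
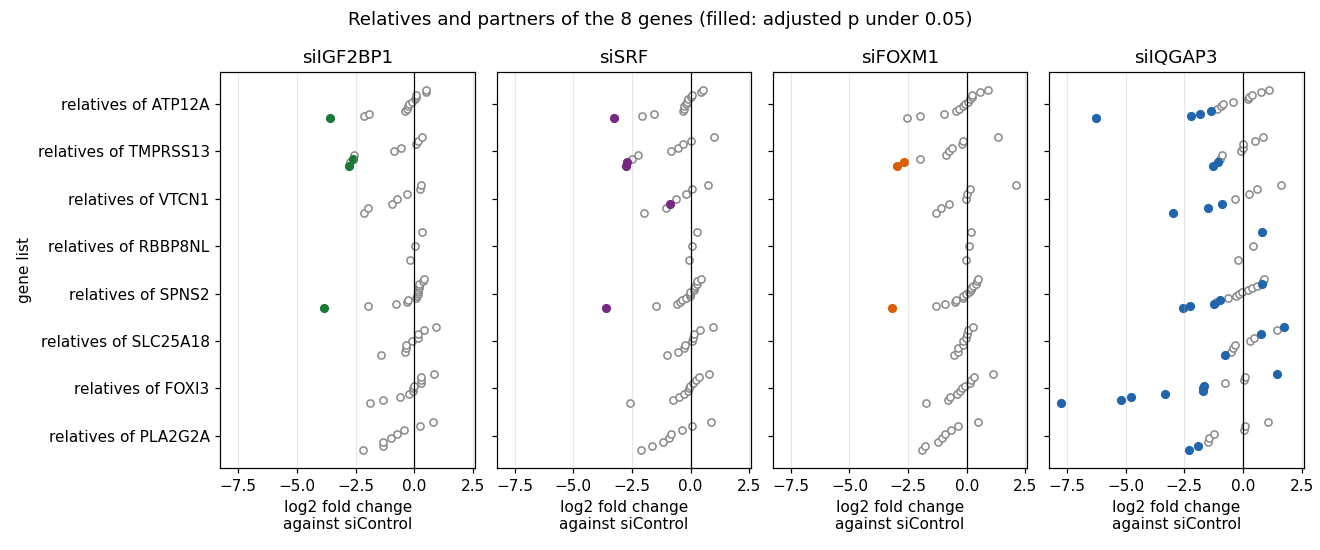
Log2 fold change against siControl of the 75 tested relatives and partners, in 1 panel per knockdown and 1 line per list; filled points passed the test and open points did not. There are 4, 5 and 3 filled points in siIGF2BP1, siSRF and siFOXM1, all to the left of 0, and 28 in siIQGAP3.

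Markers of cell types were measured beside these genes, and their summed levels did not all follow the members. The counts called below stand against 1.62%, 1.57%, 1.12% and 32.5% of all genes called in siIGF2BP1, siSRF, siFOXM1 and siIQGAP3. The summed level of 10 embryonal carcinoma markers was 1762 to 4500 CPM in siControl, 392 to 500 in siIGF2BP1, 400 to 494 in siSRF, 235 to 1298 in siFOXM1 and 4841 to 4975 in siIQGAP3, which is above every control. Of these 10, 4, 3, 2 and 2 were called lower in the 4 knockdowns and 2 higher in siIQGAP3. Every marker of this list had a lower mean in siIGF2BP1, siSRF and siFOXM1 than in siControl. There POU5F1 was at 43.9, 38.9 and 60.8 CPM, and NANOG at 3.04, 3.09 and 5.08 CPM. The sum hides opposite changes in siIQGAP3. Mean POU5F1, for which the deposited tables do not match, fell from 830 CPM in siControl to 59.8 CPM, and NANOG from 83.2 to 7.96 CPM. The other markers of this list had higher means than in siControl, such as LIN28A (1521 against 412 CPM). For 10 surface epithelium markers the summed level was 1158 to 2881, 169 to 1076, 179 to 2340, 1020 to 3100 and 3408 to 3629 CPM in the same order, and 4, 3, 2 and 3 of the 8 tested were called lower. These sums lay above every control in siIQGAP3 and spanned the control range in siFOXM1. KRT8 and KRT18 made up most of them, at means of 1453 and 867 CPM in siFOXM1 and 2048 and 1292 CPM in siIQGAP3. CDH1 fell from a siControl mean of 165 CPM to 6.83 CPM in siFOXM1 and 20.5 CPM in siIQGAP3. Of the remaining markers, TP63 in siFOXM1 and EPCAM in siIQGAP3 had a higher mean than in siControl, and the others had lower means. The 10 amnion and trophoblast markers summed to 244 to 387 CPM in siControl and 163 to 240 CPM over the knockdown libraries, with 2, 2, 2 and 3 called lower and 1 higher in siIQGAP3. Fibroblast markers summed to 2017 to 8768 CPM in siControl, 4487 to 10880 CPM over siIGF2BP1, siSRF and siFOXM1, and 2801 to 2836 CPM in siIQGAP3, where 4 of 8 were called lower, against 0 in the other 3 knockdowns (edgeR, with 0 at an unadjusted p under 0.05). The siControl libraries differed widely for some of these markers. COL3A1 was at 3.52 to 2727 CPM in siControl and 118 to 123 CPM in siIQGAP3. In siIQGAP3, THY1 and PDGFRB lay above every control and the other fibroblast markers within the control range, so the 4 calls do not rest on all siControl libraries. The 8 blood markers summed to at most 14.0 CPM in any library, and the 6 endothelial markers to at most 90.5 CPM. Of 6 blood markers tested, 0 were called by edgeR in siIGF2BP1, siSRF and siFOXM1, with 2, 1 and 1 at an unadjusted p under 0.05, and 2 were called lower and 1 higher in siIQGAP3. Of 5 endothelial markers tested, 2, 2, 1 and 1 were called lower and, in siIQGAP3, 1 higher. The markers at 0 in every library of a group were GCM1 in siControl, KRT5 in siFOXM1, HBB in all groups but siIQGAP3, and CD3E in siSRF and siFOXM1. TFAP2A and GATA3 stand both in the amnion and trophoblast list and among the relatives of FOXI3. The part of these markers' changes in the levels of the 8 genes was not tested.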

How the data were processed

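RNA of 15 NTERA2 samples was sequenced as paired reads of 100 bp, per the labels' protocols. STAR was the aligner, and reads were handled with SAMtools and counted with featureCounts on GRCh37, per the submitters' processing notes. The version, annotation and strand setting are not given in the sources used here. Raw counts per gene were deposited by the authors and are the basis of every value. The deposited normalised signal was used only as a check: for all 8 genes it equalled the count times 1 factor per library (tolerance 1e-06). Columns were mapped to groups by their names.

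Counts were tested with edgeR 4.0.16 (R 4.3.3) after its default filter on low counts and TMM scaling, by the quasi-likelihood F test with all 15 libraries in 1 fit, Benjamini-Hochberg adjustment over 18760 genes and a threshold of 0.05. DESeq2 1.42.0 was an alternative. The procedure was tested on simulated data. Correlations are of log2 CPM (prior count 2). Percentages of control from summed counts have exact 95% intervals, which cover counting error only. Motifs were searched in RefSeq windows of 300 bases (GRCh38.p14); TMPRSS13, RBBP8NL and SPNS2 have none here.

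The members and gene lists were chosen with earlier results of these data known. Named beside the members are the 3 genes most like each, up to 4 called relatives per list with the smallest p, and the 4 siRNA targets. Some called relatives are counted but not reported by name here. MYBBP1A, GATA3 and the cell type markers GCM1, KRT5, HBB and CD3E were named after their values were seen. The same holds for NANOG, LIN28A, KRT8, KRT18, CDH1, TP63, EPCAM, COL3A1, THY1 and PDGFRB. Alternatives were scaling by library size alone, no filter, DESeq2, only the groups compared, each library left out in turn, and library 3 of every group left out.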

Additional observations from a re-analysis of the deposited data

Results flagged for a closer look

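Relatives of the 8 genes that were called lower in siIGF2BP1, siSRF or siFOXM1 were also compared between siIQGAP3 and that knockdown, and those whose change against siControl differed between the 2 knockdowns by a test of the difference (edgeR, adjusted over all genes tested) are given here. Passing this test was common, since 49.9%, 42.8% and 36.8% of all genes were called between siIQGAP3 and siIGF2BP1, siSRF and siFOXM1. TMPRSS2 was higher in siIQGAP3, at 7.88 ± 0.221 CPM (SD, n = 3), than in siIGF2BP1 by 3.43 log2 units (adjusted p = 2.82e-04), than in siSRF by 3.59 (2.59e-04) and than in siFOXM1 by 3.49 (3.38e-04). ST14 was higher in siIQGAP3, at 2.56 ± 0.603 CPM, by 1.90 (0.00141), 1.80 (0.00220) and 2.09 (0.00141) in the same order. These 6 differences held under all 10 alternatives run for each. ATP1A4 was higher in siIQGAP3, at 0.982 ± 0.229 CPM, than in siIGF2BP1 by 2.68 (adjusted p = 0.0109) and than in siSRF by 2.33 (0.0219). The ATP1A4 difference from siSRF was lost without library 1 or 2 of siSRF or library 1 or 3 of siIQGAP3 (adjusted p of 0.0551 to 0.0844), and its size was 3.09 without library 3 of siSRF. All 3 siIQGAP3 libraries of TMPRSS2 and of ST14 lay above all 9 libraries of the other knockdowns. SPNS3 did not pass this test against any of the 3 knockdowns (adjusted p = 0.161, 0.245 and 0.485), but passed it against siIGF2BP1 without library 1 of siIGF2BP1 (0.0237).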

How the results depend on the processing

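The members lay below siControl in the same number under every alternative run in siIGF2BP1, siSRF and siFOXM1, and in 7 or 8 of 8 in siIQGAP3, where the sign of FOXI3 varied around 0 (log2 fold change -0.27 to 0.40). Of 257 alternative values for members between siIGF2BP1, siSRF and siFOXM1, 1 crossed the threshold, that of SLC25A18 given in the report. No call reversed. Of 479 alternative values for the called relatives, 94 lost the call.

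The counts of called relatives moved more. In siSRF 3 were called with library size scaling alone and 3 with no filter. DESeq2 called 12, 11 and 9 in siIGF2BP1, siSRF and siFOXM1, and 2, 64 and 45 genes in all between siIGF2BP1 and siSRF, siIGF2BP1 and siFOXM1, and siSRF and siFOXM1. With only the groups compared in the fit, which has fewer samples, 0 relatives were called in siIGF2BP1, 0 in siSRF and 0 in siFOXM1, and 0 genes between siIGF2BP1 and siSRF. Without library 3 of every group, the relatives called were 43, 52, 47 and 64 in siIGF2BP1, siSRF, siFOXM1 and siIQGAP3. The genes called in the 3 pairs were then 259, 9956 and 10534, and the cause was not tested. The shares of all genes called against siControl under these alternatives are not given here, so the counts of relatives are not read further. Leaving out 1 library at a time gave 2 to 9, 2 to 13, 1 to 13 and 19 to 46 relatives, and for the pairs siIGF2BP1 against siFOXM1 and siSRF against siFOXM1 2 to 206 and 1 to 175 genes, the highest without library 3 of siFOXM1.

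No paired analysis was possible because the columns carry no replicate number. With 3 libraries a group, and at a few counts per library for RBBP8NL, VTCN1, TMPRSS13 and PLA2G2A in the knockdowns, moderate differences between knockdowns were not detectable.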
